A study of Mus musculus with 5 samples.

Results

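The genes described here are 36 genes of G2 and mitosis, taken from a named list and matched by symbol to the 31053 genes of each deposited table. The list was not computed from a measured value of these cells, but it was chosen with earlier results of these data known. All 36 genes had at least 1 UMI in each of the 5 libraries, and all 36 passed the minimum of 50 UMIs in each comparison that pools cells over libraries or sets an age against another. Counts within a library used a minimum of 10 UMIs, which all 36 also passed. They were read as single genes and as their summed level across cell classes, granulosa stages and ages.

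The cells came from dissected ovaries of untreated C57BL6/J mice aged 2, 3, 4, 5 or 6 wk, with 1 single-cell library per age. The ovaries were dissociated with trypsin, filtered to remove clumps, and sorted for live cells before 10x Genomics 3′ libraries were made. The study used these ages to follow the first wave of follicles through growth, atresia and remodeling, and the comparisons below ask where and when dividing cells were found along that course. How many animals went into a library is not given in the sources used here. With 1 library per age there is no replicate, and every interval in the text is a 95% counting interval that does not cover the spread between mice.

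A cell that has copied its DNA builds up the mitotic cyclins during G2, which activate the kinase CDK1 and drive entry into mitosis. Aurora and Polo kinases then organise the spindle and the kinetochores, the checkpoint proteins hold back anaphase until chromosomes are attached, and the anaphase-promoting complex (APC/C) ends mitosis by destroying the cyclins. Most of these genes are transcribed mainly late in the cycle, under MuvB complexes with MYBL2 and FOXM1 and with NF-Y. In the ovary, granulosa cells of primordial follicles are quiescent, and those of growing follicles divide to build the layers around the oocyte.

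Cell numbers were 9471, 9253, 11077, 7779 and 10583 for the ages of 2, 3, 4, 5 and 6 wk, with median depths of 9056 to 12424 UMIs per cell and 187490, 117664, 192516, 165045 and 225276 UMIs of the 36 genes. Over all cells of a library the genes summed to 1501, 1259, 1636, 1541 and 1558 CPM at the same ages. CPM here is UMIs scaled to 1000000 UMIs of the cells considered, and a 3′ library counts captured molecules whatever the length of the transcript. Pairs of libraries shared 18 to 35 cell barcodes, at most 0.399% of the smaller library, and no library was removed. The file headers name Cell Ranger 3.1.0 for 2, 3 and 4 wk and 6.0.1 for 5 and 6 wk, so this version cannot be told apart from age between those sets.

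The promoters of these genes are known for a pair of short elements, the cell cycle homology region (CHR, searched as TTTGAA or its reverse TTCAAA) and the NF-Y box (CCAAT or ATTGG). RefSeq promoter windows of 300 bases on build GRCm38.p6, from 250 bases before the start site, were at hand for 29 of the 36 genes and gave 30 windows, since Prc1 had 2. Ccna2, Aurkb, Tpx2, Kif20a, Dlgap5, Foxm1 and Pimreg had no window. Of the 30 windows, 22 (73.3%) held a CHR on either strand, against 17.9% of all 32851 windows. An NF-Y box was found in 23 (76.7%), against 37.4% of all, and both were found in 19 (63.3%), against 6.95% of all. A CHR starting 25 to 40 bases after the start of an NF-Y box, a spacing looked for after the positions were seen, was found in 11 windows (36.7%), against 0.645% of all. The windows of Nuf2, Birc5, Nusap1 and Mxd3 held neither sequence. Neither element was particular to these genes. In windows of a list of other mitosis genes 70% held an NF-Y box, 58% a CHR and 46% both. In those of a list of DNA replication genes the shares were 60%, 10% and 6.67%.

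Stretches just upstream of the start are shown for 3 genes with both elements and for Bub1, which has NF-Y boxes without a CHR. Bases inside the gene as annotated by GENCODE were left off. They are written 5′ to 3′ on the strand of the gene, with both elements in capitals. The Cdc20 stretch lies at chr4:118437353-118437453 (minus strand), Top2a at chr11:99024190-99024299 (minus), Kif11 at chr19:37376272-37376381 (plus) and Bub1 at chr2:127831866-127831969 (minus).
Cdc20: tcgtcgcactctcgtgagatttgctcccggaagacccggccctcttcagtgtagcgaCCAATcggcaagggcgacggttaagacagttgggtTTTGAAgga
Top2a: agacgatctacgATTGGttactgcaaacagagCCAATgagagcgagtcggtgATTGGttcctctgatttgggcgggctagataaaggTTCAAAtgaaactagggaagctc
Kif11: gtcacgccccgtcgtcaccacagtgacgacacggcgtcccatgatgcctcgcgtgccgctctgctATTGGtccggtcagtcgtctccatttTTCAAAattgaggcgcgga
Bub1: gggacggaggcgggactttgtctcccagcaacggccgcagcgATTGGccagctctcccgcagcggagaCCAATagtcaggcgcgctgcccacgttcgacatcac

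**Figure D1:**
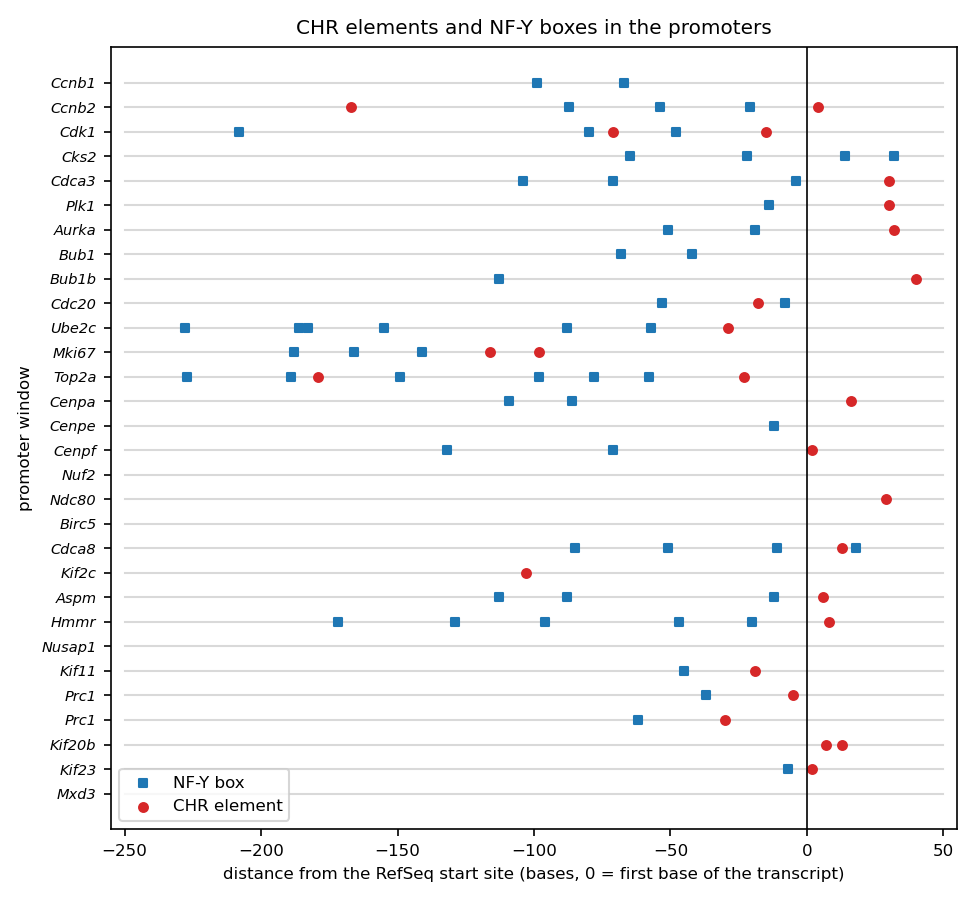
Positions of CHR elements (red circles) and NF-Y boxes (blue squares) in the 30 promoter windows, on a horizontal axis of bases from the RefSeq start site. In 12 of the 22 windows with a CHR, every CHR lies after the start, and the NF-Y boxes lie mostly before it.

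The NF-Y boxes lay mostly before the start site. CHR elements lay on either side of it, and Mki67 (-116 and -98) and Kif2c (-103) were the only genes with every CHR farther upstream than 30 bases. When only bases before the start were searched, the share of windows with a CHR was 30% for these genes and 16% for all, while the share with an NF-Y box stayed at 76.7% against 33.9%. For the list of other mitosis genes these shares were 38% and 66%. A match of letters is a description of the window and not a measured binding site.

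Cell classes were named from markers after clustering without the cell cycle genes, so the 36 genes were not clustering features. The groups could still differ by cycle, as clusters below with cell cycle genes among their leading genes show. Summed over the 5 libraries, the genes were highest in granulosa-like cells, at 1859 CPM (1854 to 1864) in 17465 cells. Lymphatic endothelial-like cells had 1520 CPM, blood endothelial-like cells 1339, hematopoietic-like cells 1296, stromal-like cells 1269 and pericyte-like cells 1264. The intervals of the hematopoietic, stromal and pericyte values overlap. Theca-like cells had 801 CPM, surface epithelial-like cells 572, smooth muscle-like cells 355 and rete ovarii-like cells 103, from 116 UMIs in 90 cells. This order did not hold within each library. At 2 wk hematopoietic-like, lymphatic endothelial-like and theca-like cells, with 2985, 2597 and 1931 CPM, were above granulosa-like cells, with 1571, and stromal-like cells, with 1574, were level with them. At 3 wk lymphatic endothelial-like cells, with 1875 CPM, were above granulosa-like cells, with 1541, and at 4, 5 and 6 wk granulosa-like cells were the highest of the named classes. The small classes varied widely between libraries. Hematopoietic-like cells ranged from 369 CPM at 3 wk to 2985 at 2 wk, and lymphatic endothelial-like cells from 187 at 4 wk to 2597 at 2 wk. The 8729 cells left unnamed, mostly clusters of low depth and 1 cluster with 62.3% called doublets, had 1730 CPM. Of these, 2001 cells formed a cluster with a median of 1010 UMIs and with Ube2c, Cdk1, Cdc20, Birc5 and Cks2 among its leading genes. It held 222, 218, 321, 568 and 672 cells at 2, 3, 4, 5 and 6 wk. These cells are part of no named class or stage below.

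**Figure D2:**
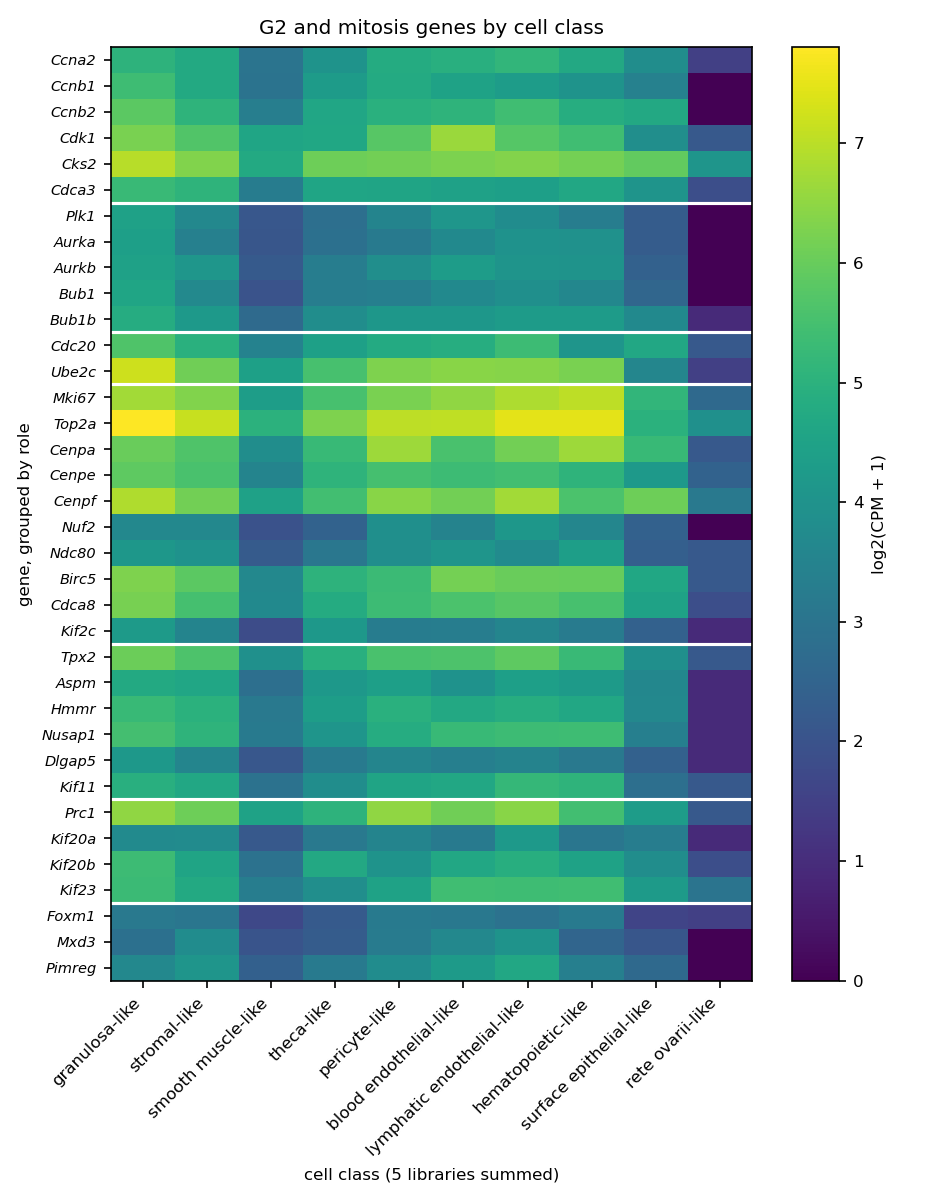
Each row is a gene, grouped by role with white lines between groups, each column a cell class with the 5 libraries summed, and the colour is log2(CPM + 1). The granulosa-like column is brightest for most genes, and the smooth muscle-like and rete ovarii-like columns are darkest.

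Granulosa-like cells had 1.46 times (1.46 to 1.47) the summed level of stromal-like cells. Of the 36 genes, 16 were at least 1.5-fold higher in granulosa-like cells, where 30.3% of the 16284 genes tested were, and 1 was as much lower, where 23% of all genes were. The share of these genes was therefore 44.4% against a background of 30.3%, and the median ratio was 1.37 against 1.14 for all genes. The highest ratios belonged to Ube2c, the ubiquitin-conjugating enzyme of the APC/C (146 against 67.9 CPM, ratio 2.15), to Aurka, the centrosomal Aurora kinase (20.3 against 9.62, ratio 2.11), and to Bub1, a checkpoint kinase (23.2 against 11.8, ratio 1.96). The lowest belonged to Mxd3, a MAX-binding repressor (6.33 against 13.0, ratio 0.486), to Pimreg, a mitotic regulator (11.4 against 15.7, ratio 0.726), and to the cytokinesis kinesin Kif20a (12.4 against 12.6, ratio 0.985). This difference between the lineages was absent at 2 wk. Within each library the ratio was 0.998 (0.988 to 1.01) at 2 wk and 1.43, 1.79, 1.44 and 1.94 at 3, 4, 5 and 6 wk, and the number of genes higher in granulosa-like cells was 15 of 36 at 2 wk and 33, 34, 34 and 35 at the later ages. Of all genes with at least 10 UMIs, 58.0% were higher in granulosa-like cells at 2 wk and 59.4%, 56.2%, 60.9% and 60.7% at the later ages. Against all mesenchymal cells together, the stromal-like, theca-like and smooth muscle-like cells, 25 of the 36 genes were at least 1.5-fold higher, where 27.9% of all genes were, and 1 was as much lower, where 24.2% were, with a summed ratio of 1.77. Ube2c (ratio 2.57), Aurka (2.50) and Bub1 (2.33) were again the highest, and Mxd3 (0.628), Pimreg (0.895) and Kif20a (1.19) the lowest. Within libraries this ratio was 1.07 at 2 wk and 1.65, 2.15, 2.27 and 2.28 at 3, 4, 5 and 6 wk.

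In granulosa-like cells the summed level was 1571 CPM at 2 wk, 1541 at 3 wk, 1994 at 4 wk, 2152 at 5 wk and 1959 at 6 wk. By summed level the libraries of 4, 5 and 6 wk were thus above those of 2 and 3 wk. The ratios to 2 wk were 0.981 (0.971 to 0.991), 1.27 (1.26 to 1.28), 1.37 (1.36 to 1.38) and 1.25 (1.24 to 1.26). The share of cycling cells after thinning to 1 depth, given further below, was higher at 3 wk than at 2 wk instead. Between 3 and 4 wk, both processed with Cell Ranger 3.1.0, the ratio was 1.29, with 8 genes at least 1.5-fold higher, where 9.54% of all genes were, and none as much lower, where 8.91% were. Cenpa (1.72), Ube2c (1.70) and Pimreg (1.66) had the highest ratios of 4 wk to 3 wk, and Mxd3 (0.896), Kif23 (0.999) and Cdca8 (1.06) the lowest. Of the 36 genes, 0, 11, 11 and 5 were at least 1.5-fold above 2 wk at 3, 4, 5 and 6 wk, where 6.74%, 12.7%, 14.2% and 13.2% of all tested genes were. At 3 wk 2 genes were at least as far below 2 wk, where 16.9% of all genes were, and at 4, 5 and 6 wk none was, where 23.8%, 12.9% and 12.7% of all genes were. The median ratio of the 36 genes was 0.962, 1.27, 1.36 and 1.26, and that of all genes 0.931, 0.900, 0.975 and 1.005.

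The genes at the ends of the range changed with age. At 3 wk Cdca8 (1.47), Foxm1 (1.34) and Mxd3 (1.33) had the highest ratios to 2 wk and Cdk1 (0.501), Aurkb (0.653) and Cks2 (0.737) the lowest. At 4 wk Ccnb1 (1.80), Hmmr (1.79) and Ccnb2 (1.69) were highest and Cdk1 (0.693), Aurkb (0.773) and Kif23 (0.780) lowest. At 5 wk Ube2c (2.06), Cdc20 (1.77) and Cenpa (1.75) were highest and Kif23 (0.861), Top2a (0.964) and Nuf2 (1.01) lowest. At 6 wk Pimreg (1.74), Cenpa (1.74) and Hmmr (1.62) were highest and Kif23 (0.820), Nuf2 (0.944) and Nusap1 (0.959) lowest. Kif23 was thus among the lowest 3 at 4, 5 and 6 wk.

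**Figure D3:**
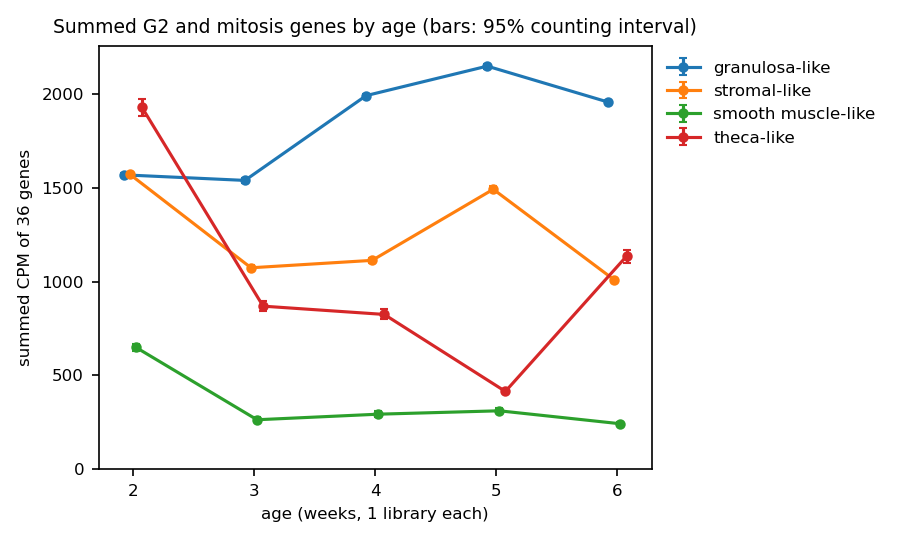
Summed CPM of the 36 genes (vertical axis) by age in weeks (horizontal axis) in cells named granulosa-like, theca-like, stromal-like and smooth muscle-like, with 1 library per point and 95% counting intervals as bars. The granulosa-like line runs from 1571 at 2 wk to 2152 at 5 wk, and the other lines are highest at 2 wk.

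Among the cyclins and their partners, cyclin B1 (Ccnb1) had 28.4, 33.5, 51.2, 46.9 and 40.8 CPM in granulosa-like cells at 2, 3, 4, 5 and 6 wk. Ccnb2 followed the same order, with 39.8, 44.2, 67.3, 65.8 and 59.5 CPM. Both were lowest at 2 wk and highest at 4 wk. Cyclin A2 (Ccna2), which acts from S phase into mitosis, had 28.2, 25.04, 33.8, 38.1 and 34.3 CPM. Cdca3, grouped with these genes here, had 28.9, 35.9, 44.0, 41.5 and 37.0. Cdk1 itself had 70.9, 35.5, 49.1, 109.9 and 100.7 CPM, and its small subunit Cks2 had 117, 85.9, 99.4, 167 and 154. These levels were below 2 wk at 3 and 4 wk and above it at 5 and 6 wk, a pattern unlike that of the B cyclins.

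The APC/C pair, Ube2c and Cdc20, summed to 136, 136, 216, 271 and 209 CPM. Ube2c had 102, 93.1, 159, 210 and 159 CPM at 2, 3, 4, 5 and 6 wk and its ratio at 5 wk, 2.06 (1.99 to 2.13), was the highest of the 36. Its counts include 1168 UMIs from 7 cells with germ cell markers, described further below, of which 3 were at 2 wk and 2 at 5 wk. Cdc20, the activator that switches the APC/C on at anaphase, had 34.2, 42.7, 56.9, 60.4 and 50.1 CPM. Of the kinases, Aurka had 17.5, 17.2, 20.3, 22.8 and 22.8 CPM and Plk1, the Polo kinase, 18.8, 16.8, 23.0, 24.9 and 21.0. Bub1 and Bub1b, of the spindle checkpoint, went from 19.5 and 23.6 CPM at 2 wk to 26.2 and 30.1 at 5 wk. Aurkb, the kinase of the chromosomal passenger complex, had 21.4, 14.0, 16.6, 28.4 and 26.1 CPM.

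The chromosome and centromere group held the most UMIs, and its members moved unequally. Cenpa, the centromeric histone, had 44.7, 41.0, 70.7, 78.4 and 77.6 CPM, with its 3 later values close together. Top2a, the topoisomerase that untangles sister chromatids, stayed between 211 and 236 CPM at the 5 ages, and its ratio to 2 wk ran from 0.964 to 1.08. Mki67, the proliferation marker that coats mitotic chromosomes, had 94.5, 88.8, 115, 108 and 111 CPM. The passenger proteins Birc5 and Cdca8 were at 54.96 and 54.89 CPM at 2 wk and at 89.0 and 85.6 at 4 wk. The kinetochore genes Cenpe, Cenpf, Kif2c, Ndc80 and Nuf2 had 42.5, 91.4, 13.6, 15.2 and 12.0 CPM at 2 wk and 62.0, 125, 21.0, 20.2 and 12.2 at 5 wk, so Nuf2 alone among them was level, with a ratio of 1.01 (0.904 to 1.14).

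Of the spindle genes, Hmmr had 25.2, 27.4, 44.9, 42.6 and 40.7 CPM and a ratio of 1.79 (1.68 to 1.91) at 4 wk, while Kif11, the kinesin that separates the poles, stayed between 24.7 and 32.0 CPM. Tpx2, Aspm, Nusap1 and Dlgap5 had 54.98, 23.4, 40.2 and 14.5 CPM at 2 wk and 67.9, 31.2, 48.0 and 20.5 at 5 wk. In the central spindle group, Prc1 had 73.3 CPM at 2 wk and 105 at 5 wk, and Kif20a and Kif20b were at 12.1 and 39.4 CPM at 2 wk and 13.9 and 42.3 at 5 wk. Kif23, a kinesin of the midbody, went the other way, with 46.2 CPM at 2 wk and 36.1, 36.1, 39.8 and 37.9 at the later ages. Foxm1, the forkhead factor of this programme, had 5.65, 7.60, 8.46, 9.27 and 8.54 CPM, Mxd3 had 5.13 to 6.85, and Pimreg had 8.59, 6.54, 10.9, 14.9 and 14.97.

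**Figure D4:**
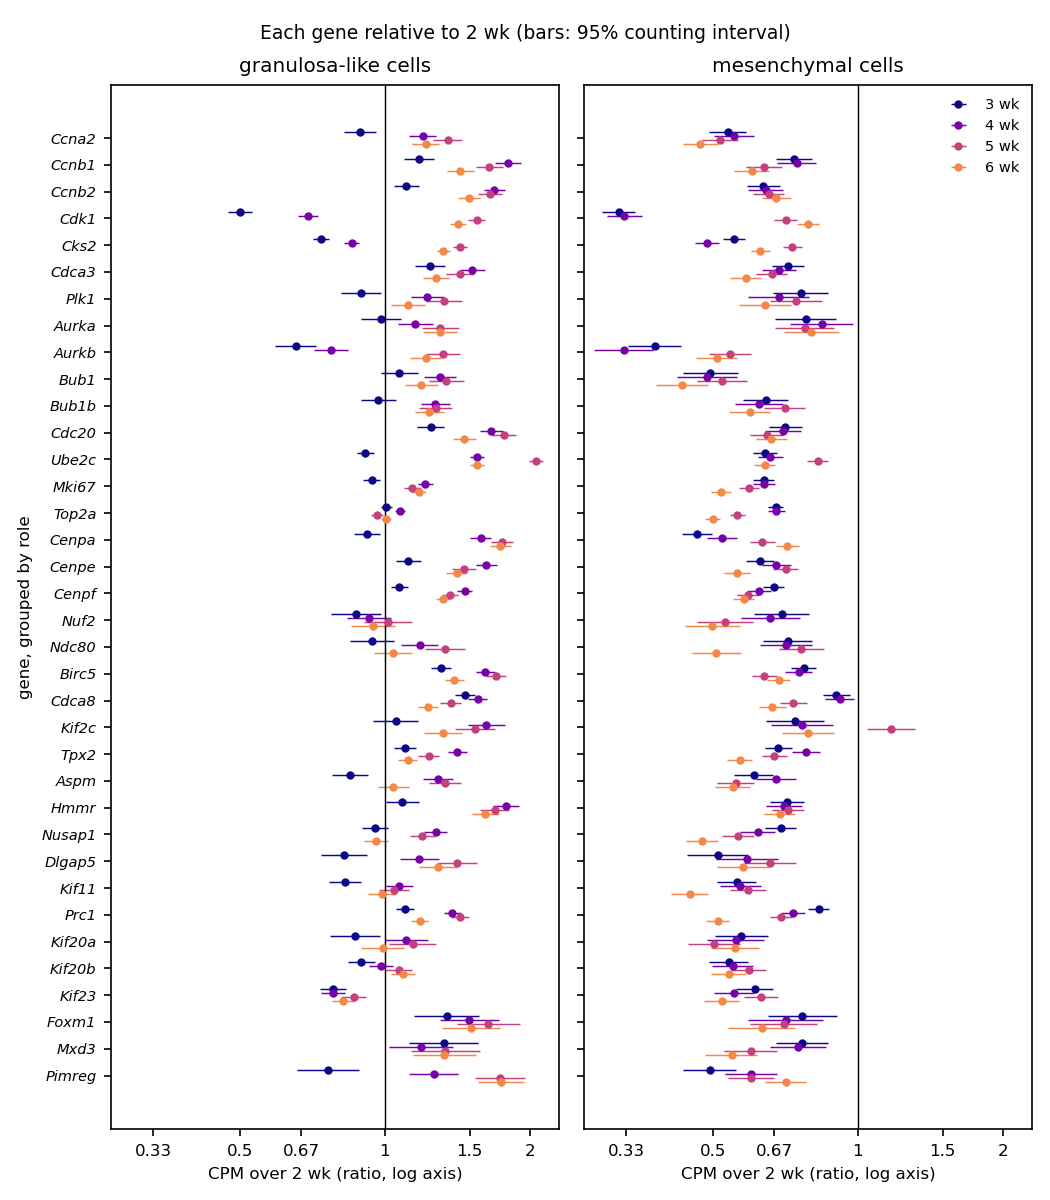
Ratio of each gene's CPM at 3, 4, 5 and 6 wk to 2 wk on a log axis, in granulosa-like cells (left) and mesenchymal cells (right), with 95% counting intervals and a line at 1. Most points lie above 1 on the left and below 1 on the right, and Cdk1 at 3 and 4 wk lies farthest to the left of the cyclin group in both panels.

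The 19242 mesenchymal cells went in the other direction. Their summed level was 1462 CPM at 2 wk and 935, 928, 949 and 858 at 3, 4, 5 and 6 wk, ratios of 0.639, 0.635, 0.649 and 0.587. At 3, 4, 5 and 6 wk, 18, 19, 22 and 28 of the 36 genes were at least 1.5-fold below 2 wk, where 16.2%, 16.1%, 13% and 14.5% of all tested genes were, and none was as far above it, where 5.67%, 10.2%, 12.9% and 9.45% were. The median ratio of the 36 genes was 0.655, 0.658, 0.643 and 0.578, and that of all genes 0.930, 0.958, 0.960 and 0.982. At 3 wk Cdk1 (0.318), Aurkb (0.378) and Cenpa (0.464) had the lowest ratios and Cdca8 (0.902), Prc1 (0.828) and Aurka (0.779) the highest. At 4 wk the lowest were Aurkb (0.327), Cdk1 (0.327) and Cks2 (0.486) and the highest Cdca8 (0.917), Aurka (0.841) and Tpx2 (0.780). At 5 wk Kif20a (0.502), Ccna2 (0.517) and Bub1 (0.523) were lowest, and Ube2c (0.825) and Aurka (0.775) followed Kif2c at the other end. Between 3 and 4 wk no gene was 1.5-fold higher or lower, where 6.43% and 2.9% of all genes were, and the summed ratio was 0.993 (0.978 to 1.01). Pimreg (1.22), Dlgap5 (1.15) and Tpx2 (1.14) had the highest of these ratios and Aurkb (0.863), Cks2 (0.879) and Prc1 (0.887) the lowest. At 6 wk the lowest ratios to 2 wk were those of Bub1 (16.3 to 7.01 CPM, ratio 0.431), Kif11 (30.5 to 13.7, ratio 0.447) and Ccna2 (32.9 to 15.5, ratio 0.470), and the highest those of Aurka (9.57 to 7.66, ratio 0.801), Kif2c (11.03 to 8.71, ratio 0.789) and Cdk1 (62.6 to 49.4, ratio 0.788). Kif2c at 5 wk, with a ratio of 1.17 (1.04 to 1.31), was the only one of the 36 above its 2 wk level at any later age. Over the 5 libraries Kif2c was detected in 18.9% of theca-like, 4.37% of stromal-like and 1.12% of smooth muscle-like cells, at medians of 17238, 9595.5 and 8816 UMIs. Theca-like cells numbered 181 at 2 wk and 670 at 5 wk, and their part in this ratio was not tested.

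The mesenchymal classes differed in size of the change. Smooth muscle-like cells had 650 CPM at 2 wk and 242 to 311 later, and theca-like cells had 1931 CPM at 2 wk and 870, 826, 415 and 1137 later. Stromal-like cells had 1574 CPM at 2 wk and 1075, 1114, 1494 and 1010 at 3, 4, 5 and 6 wk, so that at 5 wk their summed level was near that at 2 wk, with a ratio of 0.949 (0.937 to 0.962). The share of cycling stromal-like cells, given further below, was lower at 5 wk (8.20%) than at 2 wk (12.1%) instead. The number of theca-like cells was 181, 283, 323, 670 and 160, and the mix of their 2 clusters differed between ages. The cluster led by Cyp11a1 and Cyp17a1, of the steroid pathway, held 38.7%, 49.8%, 61.0%, 82.5% and 42.5% of the theca-like cells at 2, 3, 4, 5 and 6 wk. Its summed level was 948, 460, 527, 190 and 1232 CPM, so it was lowest at 5 wk and highest at 6 wk. The other cluster, led by Cpa1, had 2584 CPM at 2 wk and 1303, 1335, 1412 and 1058 later. When the libraries were merged without integration, the 4 mesenchymal ratios were closer to 1, at 0.826, 0.871, 0.893 and 0.796. That run left unnamed a cluster of 3168 cells with Tcf21 and Pdgfra among its leading genes, since over 90% came from 1 library. Of its cells 2987 were from 2 wk, so these ratios do not rest on the same cells.

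Cdk1, Aurkb and Cks2 had a pattern by library that the B cyclins lacked, and it was chosen for description after the values were seen. As a share of the UMIs of the 36 genes, which removes the overall level, Cdk1 held 4.51%, 2.303%, 2.46%, 5.11% and 5.14% in granulosa-like cells at 2, 3, 4, 5 and 6 wk. In stromal-like cells it held 4.36%, 2.17%, 2.19%, 4.55% and 5.53%, in theca-like cells 3.32%, 1.68%, 2.01%, 3.55% and 3.59%, and in smooth muscle-like cells 4.56%, 2.52%, 2.94%, 9.38% and 12.5%. The 3 and 4 wk libraries were the lowest in each of these 4 classes. Aurkb held 1.36%, 0.908%, 0.831%, 1.32% and 1.33% in granulosa-like cells, and Cks2 held 7.42%, 5.57%, 4.99%, 7.76% and 7.87%. In theca-like cells the pattern did not hold for these 2 genes. Cks2 held 6.57% at 2 wk and 7.21% at 3 wk, and Aurkb held 0.718% at 6 wk and 0.882% at 3 wk. In both lineages, Cdk1, Aurkb, Cks2 and the spindle gene Dlgap5 had lower shares at 3 and 4 wk than at every other age. The other genes of the 36 did not. How many genes outside the 36 follow this pattern was not counted, so it is not known to be particular to these genes. The 3 and 4 wk libraries also had the lowest median depths, 9056 and 9581 UMIs per cell, and the part of depth or of library preparation in this pattern was not tested.

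Granulosa-like cells were clustered again without cell cycle genes and named by stage from follicle markers. The summed level was 327 CPM in primordial-like cells, 1208 in primary-like, 2654 in secondary-like, 2401 in antral-like and 535 in remodeling-like cells. Primary-like cells were 3.69 times (3.56 to 3.83) the primordial-like level and secondary-like cells 2.20 times (2.18 to 2.22) the primary-like level. All 36 genes were at least 1.5-fold higher in the first of these comparisons, where 10.4% of all genes were, and 35 in the second, where 8.28% were. None was as much lower in either, where 15.3% and 11.6% of all genes were. The exception was Kif23 (61.4 against 45.3 CPM, ratio 1.36). In each of the 5 libraries all 36 genes were higher in both steps, where 43.6% to 58.8% of all genes with at least 10 UMIs were higher in the first and 42.2% to 46.1% in the second. At 5 and 6 wk 16 and 2 of the 36 were higher than a count of 0 in primordial-like cells. The summed ratios were 3.19, 3.87, 2.92, 16.4 and 3.57 from primordial-like to primary-like cells and 1.88, 2.99, 2.01, 2.20 and 2.05 from primary-like to secondary-like cells at 2, 3, 4, 5 and 6 wk. The ratio of 16.4 rests on 92 UMIs in 83 primordial-like cells at 5 wk. When the cell cycle genes were kept in the clustering, these pooled ratios were 1.75 and 4.02, and with stage markers at 1.5-fold the second was 1.38. With cell cycle genes kept, cells could be sorted by the genes measured.

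**Figure D5:**
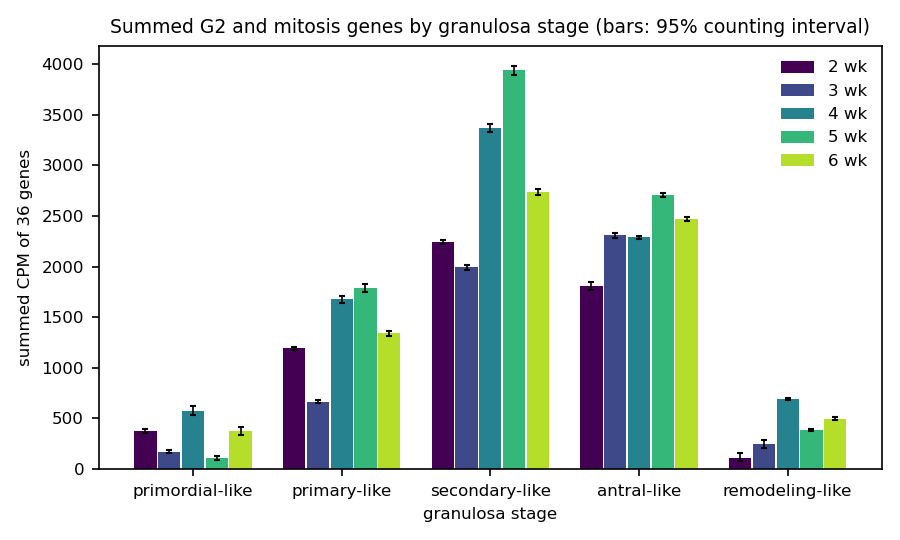
Summed CPM of the 36 genes (vertical axis, from 0) in 5 granulosa stages, with a bar for each age and 95% counting intervals. In every library the primordial-like and remodeling-like bars are below the primary-like, secondary-like and antral-like bars.

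The genes with the largest ratios from primordial-like to primary-like cells were Kif2c, a microtubule depolymerase of kinetochores (1.54 to 9.80 CPM, ratio 6.35), Nusap1 (5.30 to 33.0, ratio 6.23) and Ube2c (13.6 to 71.1, ratio 5.24), and those with the smallest were Pimreg (3.53 to 7.16, ratio 2.03), Bub1b (7.94 to 18.1, ratio 2.28) and Cks2 (37.2 to 86.3, ratio 2.32). From primary-like to secondary-like cells the largest ratios were those of Bub1 (11.8 to 34.9 CPM, ratio 2.96), Ccna2 (17.6 to 47.8, ratio 2.71) and Mxd3 (3.51 to 9.48, ratio 2.70), and Kif23, Pimreg and Cenpf had the smallest, 1.36, 1.75 and 1.84.

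Secondary-like and antral-like cells could not be put in order. The pooled ratio of antral-like to secondary-like cells was 0.904 (0.899 to 0.910), but within libraries it was 0.805, 1.16, 0.680, 0.687 and 0.902 at 2, 3, 4, 5 and 6 wk, and it was 1.44 when a stage marker had to be 1.5-fold over the median cluster, 1.22 without integration and 5.04 with cell cycle genes kept. In the clustering with cell cycle genes kept, clusters led by Ube2c (1207 cells) and Ccnb2 (386 cells) were named antral-like. The genes measured thus helped set the groups behind 5.04. Without integration, clusters of 1945 cells, mostly of 2 wk, and 1464 cells, mostly of 4 wk, stayed unnamed. Of the 36 genes, 1 was at least 1.5-fold lower in antral-like cells, where 11.8% of all genes were, and none as much higher, where 11.3% were. That gene was Kif23 (37.9 against 61.4 CPM, ratio 0.618), followed by Mki67 (123 against 176, ratio 0.699) and Kif11 (34.5 against 48.7, ratio 0.709). Cenpa (100 against 69.6 CPM, ratio 1.44), Ccnb2 (88.2 against 62.6, ratio 1.41) and Pimreg (17.4 against 12.6, ratio 1.39) were at the other end. Over the same cells the 28 genes of the replication list had a median ratio of 0.659, and 16 of them were at least 1.5-fold lower in antral-like cells.

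Remodeling-like cells take their name from genes listed for remodeling follicles. They had 0.223 times (0.220 to 0.226) the antral-like level. All 36 genes were at least 1.5-fold lower, where 13.6% of all genes were, and none was as much higher, where 17.3% were. All 36 were lower in each library, where 45.7% to 51.4% of all genes with at least 10 UMIs were, but at 2 and 3 wk 26 and 4 of them had no UMI in remodeling-like cells. With cell cycle genes kept in the clustering the pooled ratio was 0.0348. There, clusters led by Ube2c and by Ccnb2 were named antral-like, so the genes measured helped set the groups compared. The ratio was 0.302, 0.143 and 0.201 at 4, 5 and 6 wk, where 1265, 727 and 843 remodeling-like cells were found, and 0.0628 and 0.108 at 2 and 3 wk from 32 and 78 cells. Mxd3 (1.13 against 8.44 CPM, ratio 0.134), Aurkb (3.95 against 27.3, ratio 0.145) and Ccna2 (7.07 against 43.0, ratio 0.165) were lowest, and Cks2 (51.4 against 160, ratio 0.321), Kif23 (11.4 against 37.9, ratio 0.301) and Kif20b (13.3 against 45.8, ratio 0.290) were highest.

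The stages were not uniform. Of the 2 secondary-like clusters, the one with Amh and Rhox8 among its leading genes had 3395 CPM and the other 1664, and replication genes such as Pclaf and Cdc6 were among the leading genes of the first although they were left out of the clustering. Of the 2 primary-like clusters, the levels were 506 and 1826 CPM. The primordial-like clusters had 249 and 623 CPM, and the second, 156 cells with Tnc and Nr4a2 among its leading genes, held 1183 of the 2967 UMIs of the stage. Antral-like clusters ran from 1456 CPM, in the cluster led by Vpreb3, to 3530, and the estrogenic cluster with Cyp19a1 had 2583. The Vpreb3 cluster held 1851 of the 5702 antral-like cells. It scored higher for another stage and was named antral-like from its leading genes, so the antral-like level depends on that choice. The remodeling-like clusters had 690 CPM, where S100a6 led, and 244.

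The age pattern of the granulosa lineage, with 4, 5 and 6 wk above 2 and 3 wk, was seen inside some stages and not in others. Secondary-like cells had 2246, 1994, 3368, 3937 and 2738 CPM at 2, 3, 4, 5 and 6 wk and primary-like cells 1192, 667, 1679, 1786 and 1339, so both were lowest at 3 wk and highest at 5 wk. Antral-like cells had 1808 CPM at 2 wk and 2308, 2289, 2705 and 2470 later, so 3 wk was not below 4 wk. The antral-like clusters were mixed differently by age, and the estrogenic cluster held 44.1% of antral-like cells at 2 wk and 9.06% at 4 wk. The Vpreb3 cluster held 26.1% at 2 wk and 39.7% at 4 wk. Within the estrogenic cluster the level was 1918, 3092, 2587, 2839 and 2471 CPM, and within the Vpreb3 cluster 782, 304, 1749, 1676 and 1437. Primordial-like cells had 373, 173, 575, 109 and 375 CPM, without a common direction with age. Remodeling-like cells had 113.5, 248.7, 692.6, 387.2 and 497.5 CPM. The mix of stages also differed by age. Antral-like and remodeling-like cells were 322 and 32 of 2991 granulosa-like cells at 2 wk, and 2109 and 1265 of 5026 at 4 wk. The part of this mix in the lineage ratios was not tested.

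To count dividing cells at 1 depth, each cell was thinned to 3000 UMIs and called cycling when it had a UMI of at least 3 of the 36 genes. By this count 3235 of 17307 granulosa-like cells were cycling, 18.7% (18.1 to 19.3%), 8.76% (8.29 to 9.26%) of stromal-like and 8.85% (7.47 to 10.4%) of theca-like cells. Of the cycling theca-like cells 11.85% were called doublets, against 4.385% of the others, where these values were 1.27% and 0.498% in stromal-like cells. The lowest cycling shares were 1.83% in smooth muscle-like and 1.11% (1 of 90) in rete ovarii-like cells. Whether these reflect free RNA or dividing cells was not tested. Before thinning, cells that passed at 3000 UMIs had a median of 22388 UMIs when cycling and 14108 when not in the granulosa class, and without thinning the shares were 43.9%, 18.3% and 6.65% in the granulosa, stromal and smooth muscle classes. Of the cycling cells 55.8% were granulosa-like and 20.3% stromal-like, while these classes made up 42.5% and 33.0% of the cells deep enough to count. In the unnamed clusters 6100 of 8729 cells were too shallow, and 37.2% of the rest were cycling, of which 21.3% were called doublets.

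In granulosa-like cells the cycling share was 13.5%, 17.7%, 22.3%, 18.8% and 18.8% at 2, 3, 4, 5 and 6 wk, lowest at 2 wk and highest at 4 wk. Without thinning it was 46.4%, 39.6%, 42.8%, 41.9% and 48.3%, lowest at 3 wk and highest at 6 wk, so the order of ages depended on the thinning. At 3 wk the thinned share (16.4 to 19.1%) was above that at 2 wk (12.3 to 14.8%), unlike the summed level. Its interval overlaps those at 5 wk (17.3 to 20.4%) and 6 wk (17.5 to 20.1%). In stromal-like cells it was 12.1%, 8.13%, 8.38%, 8.20% and 6.42%, highest at 2 wk. By stage it was 2.61% in primordial-like, 8.004% in primary-like, 29.9% in secondary-like, 28.6% in antral-like and 4.36% in remodeling-like cells, and the intervals of the secondary-like (28.3 to 31.5%) and antral-like (27.5 to 29.8%) shares overlap. In remodeling-like cells 0 of 28 were cycling at 2 wk, an exact interval of up to 12.3%, and 69 of 1247 (5.53%), 22 of 723 and 34 of 840 at 4, 5 and 6 wk.

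The 36 genes marked the same granulosa-like cells. For 32 of the 36, at least 95% of the UMIs lay in cells with a UMI of 3 or more others of the list, from 99.4% for Hmmr to 95.3% for Foxm1. These cells held about 55% of all UMIs of the class, 55.7% in the case of Hmmr. Without thinning, cells with 3 or more of the 36 genes were 43.9% of the class. The median share of UMIs in them was 95.7% for the other mitosis list and 84.4% for the replication list. It was 55.25% for all genes with at least 200 UMIs, so the trait was not particular to the 36. The share of all genes past 95% is not given here. Cdk1 (93.0%), Kif20b (90.8%), Kif23 (89.98%) and Cks2 (84.6%) were spread further, and Cks2 was detected in 48.7% of granulosa-like cells at a median of 15029 UMIs, against 11.9% of smooth muscle-like cells at 8816 UMIs and 14.4% of rete ovarii-like cells at 11040 UMIs. The sum was led by Top2a, with 12.0% of the UMIs, Ube2c with 7.84% and Cks2 with 6.72%, and 8 genes made up 51.3%. Foxm1 and Mxd3 gave 0.428% and 0.341%.

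Outside the 36, the 10 genes with the largest share of their UMIs in cycling granulosa-like cells were genes of oocytes, among them Zp2 of the zona pellucida, the oocyte transcription factors Lhx8 and Figla, and Dppa3. The granulosa class held 7 cells that had at least 3 of 5 germ cell markers, all in the cluster of granulosa-like cells that stayed unnamed with 20.9% doublets. These 7 cells held 0.907% of the class's UMIs of the 36 genes and 0.28% of all its UMIs. By library, 3 were at 2 wk, 1 at 3 wk, 2 at 5 wk and 1 at 6 wk, and the age ratios of single genes given above include them. Their median was 44780 UMIs and the largest had 376555, so values pooled over them weigh that cell most. With this limit, the pooled cells had a different order of the genes. Ube2c was at 1448 CPM against 142 in the other granulosa-like cells and Birc5 at 1169 against 74.5, while Mki67 had 23.6 CPM from 19 UMIs and Top2a 18.6 from 15 UMIs, and Mxd3 had none, with an exact interval of up to 4.57 CPM. Oocytes rest in meiotic prophase and store cyclin B and APC/C transcripts for maturation. Without these cells the leading genes were Kif14 (98.0% of UMIs in cycling cells), Depdc1a (97.4%), Depdc1b (97.3%), Iqgap3 (96.8%), Pif1 (96.7%), Cep55 (96.5%), Ska1 (96.3%), Esco2 (96.1%), Hist1h2af (96.0%) and Kif18b (95.8%), where the median of all genes was 25.6%. Kif14, Depdc1a, Cep55 and Kif18b are on the list of other mitosis genes.

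The level of the 36 genes was higher in cells with more UMIs of the replication list. Among thinned granulosa-like cells the summed level was 335 CPM in the 7899 cells with 0 to 1 UMI of replication genes, 1284 in the 5386 cells with 2 to 4 and 2963 in the 4022 cells with 5 or more, and 4.71%, 16.5% and 49.1% of these cells were cycling. Nuf2, Aurkb and Top2a had the largest ratios of the highest range to the lowest, 24.2, 20.5 and 19.8, and Ccnb2, Cks2 and Cenpa the smallest, 3.37, 3.98 and 4.48. From the middle to the highest range Top2a went from 101 to 437 CPM and Ccnb2 from 54.0 to 69.2.

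The other mitosis list, 54 genes that do not overlap the 36, was read in the same way. In granulosa-like cells 2, 11, 14 and 7 of the 54 were at least 1.5-fold above 2 wk at 3, 4, 5 and 6 wk, where 6.74%, 12.7%, 14.2% and 13.2% of all genes were, with median ratios of 1.01, 1.22, 1.28 and 1.18. At 6 wk that share, like the 5 of 36 above, was near that of all genes. At 4 wk the highest were Hjurp, the chaperone of the centromeric histone (97.0 to 306 CPM, ratio 3.16), Cdkn3 (9.30 to 25.4, ratio 2.73) and Psrc1 (5.39 to 11.5, ratio 2.14). Hjurp had 175 CPM in remodeling-like and 294 in antral-like cells, a ratio of 0.594 that was above those of all 36 genes. In mesenchymal cells 26, 26, 40 and 37 of the 54 were at least 1.5-fold below 2 wk, where 16.2%, 16.1%, 13% and 14.5% of all genes were. The replication list did not follow in granulosa-like cells. Its median ratios were 1.11, 0.896, 0.897 and 0.954. Of its 28 genes 1, 0, 0 and 0 were at least 1.5-fold above 2 wk, where 6.74%, 12.7%, 14.2% and 13.2% of all genes were. Its highest ratios at 4 wk were those of E2f1 (1.43), Mcm5 (1.18) and Rrm1 (1.14). Set beside this, the summed ratio at 4 wk was 1.27 for the G2 and mitosis genes and 0.887 (0.879 to 0.896) for the replication genes in the same cells. The median ratio of the replication genes at 4 wk was near that of all genes, given earlier for these cells. In mesenchymal cells both lists were lower at 6 wk, with medians of 0.578 and 0.603. Of the 11 regulators of these promoters, none was past 1.5-fold above 2 wk in granulosa-like cells at any age, where 6.74%, 12.7%, 14.2% and 13.2% of all genes were. At 3, 4, 5 and 6 wk, 1, 3, 0 and 0 were as far below 2 wk, where 16.9%, 23.8%, 12.9% and 12.7% of all genes were. Lin37 (1.40), Mybl2 (1.33) and Nfyc (1.17) had the highest ratios of these 11 at 4 wk. Rbl2 (31.2 CPM), Nfyb (40.5) and Nfyc (29.3) were the most abundant of them in granulosa-like cells, and Mybl2, the B-Myb factor, had 6.64 CPM against 3.96 in mesenchymal cells.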

How the data were processed

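Ovarian cells from 5 ages were analysed, with 1 library per age and each sample placed in its group by its label. The authors aligned reads to mm10 and counted UMIs with Cell Ranger (3.1.0 or 6.0.1 per the file headers), and the deposited values are raw counts for the 48163 kept cells, without normalization. The members and lists were chosen with earlier results of these data known. Libraries were log-normalized and integrated with anchors in Seurat 5.3.0 (R 4.3.3) as in the study's methods, on the 1792 of 2000 variable genes left after cell cycle genes were removed, with 30 components and resolution 1. The 574 genes barred as features were the lists above, the Seurat cell cycle genes, histones and genes that followed the members with a correlation above 0.15. Clusters were named where at least 3 markers were detected, at 1.5 times the median cluster for classes and 1.2 times for stages. The name was that of the highest marker score, except that a stage with more markers among the leading genes took precedence. Clusters led by markers of another class, mostly doublets or of low depth stayed unnamed. So did clusters with over 90% of their cells from 1 library and those with fewer than 30 cells. Doublets were called with Scrublet in scanpy 1.11.5 and kept. UMIs were summed per group and scaled to CPM with exact Poisson intervals, ratios have intervals conditional on the summed count, and shares have exact binomial intervals (scipy 1.17.1), all at 95% and all covering counting error only. No test was run, since no age has a replicate. In each comparison the 3 highest and 3 lowest of the 36 ratios were named, together with genes named for their role. The interval functions were tested on simulated data. Promoter sequences are those of RefSeq on GRCm38.p6. Depth was 93438618 to 144609431 UMIs per library, and alternatives are given in the closing section.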

Additional observations from a re-analysis of the deposited data

Results flagged for a closer look

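The summed level of the 36 genes moved in opposite directions from 2 wk in the granulosa and mesenchymal lineages. It was higher in granulosa-like cells and lower in mesenchymal cells at 4, 5 and 6 wk, and the granulosa-like ratio was 2.00, 2.11 and 2.12 times the mesenchymal ratio. Within the mesenchymal cells, the summed level of stromal-like cells at 5 wk was near that at 2 wk, with a ratio of 0.949. Their share of cycling cells was 8.20% at 5 wk and 12.1% at 2 wk. Theca-like cells were 181 of 4225 mesenchymal cells at 2 wk and 670 of 3349 at 5 wk, and the part of this mix was not tested. Merged without integration, the mesenchymal ratios at 4, 5 and 6 wk were 0.871, 0.893 and 0.796, with a cluster that held 2987 cells of 2 wk left unnamed. With 1 library per age the difference between the lineages was not tested.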

How the results depend on the processing

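No paired analysis was possible because each age has 1 library and its replicate number is only a name. Of 149 values under alternatives, 66 stayed within the counting interval or within 1.5 times the main count, 79 moved and 4 changed direction. The cause was not tested. The run with all variable genes kept could sort cells by the cell cycle genes themselves. The merged run left clusters made mostly of 1 library unnamed, as given above, so its values rest on other cells. In what follows the order is the granulosa-like to stromal-like ratio, then the ratios to 2 wk, then the stage ratios. With all variable genes kept, the values outside the interval were 1.31 for the class ratio, 0.964 and 1.31 at 3 and 5 wk in granulosa-like cells, 0.631 and 0.65 at 3 and 4 wk in mesenchymal cells, and 1.75, 4.02, 5.04 and 0.0348 for primary over primordial, secondary over primary, antral over secondary and remodeling over antral. Merged without integration, they were 1.59, 0.958, 1.25 and 1.29 (3, 4 and 5 wk), 0.826, 0.871, 0.893 and 0.796, and 3.36, 1.77, 1.22 and 0.231. With cells of at least 1000 genes and under 10% mitochondrial UMIs, they were 1.55, 0.865, 1.14, 1.26 and 1.18, 0.733 at 5 wk in mesenchymal cells, and 3.88, 2.07, 0.85 and 0.214. As a mean over cells, they were 1.77, 1.0, 1.31, 1.29 and 1.26, 0.572, 0.53 and 0.493 at 3, 5 and 6 wk, and 2.48 and 0.208 for secondary over primary and remodeling over antral. As a mean over genes of log2(CPM + 1), they were 1.35, 1.25, 1.36 and 1.23 (4, 5 and 6 wk), 0.662 and 0.602 at 5 and 6 wk, and 3.23, 2.12, 0.919 and 0.238. At resolution 0.6 they were 1.44, 2.27, 0.937 and 0.242. With each cell given the class of its highest marker score, the granulosa-like ratios were 0.963, 1.33, 1.52 and 1.36. Chosen after seeing the data, leaving out cells with 3 germ cell markers gave 1.46 and, at 5 wk, 1.35, and stage markers at 1.5-fold gave 1.38 and 1.44 for secondary over primary and antral over secondary. Leaving out doublets moved none of 16 values. The cycling shares of the granulosa, stromal and smooth muscle classes were 23.4%, 12.2% and 2.84% at 5000 UMIs, 14.6%, 6.92% and 1.22% with at least 5 genes, and 43.9%, 18.3% and 6.65% unthinned. At a ratio of 2, the counts at 4, 5 and 6 wk in granulosa-like cells were 0, 1 and 0, those at 3, 4, 5 and 6 wk in mesenchymal cells 5, 4, 0 and 6, that of granulosa-like over stromal-like cells 2 and that of antral over secondary 0. The share of all genes past a ratio of 2 was not computed, so these counts cannot be set against a background. A minimum of 200 UMIs moved no count. Searching only bases before the start gave 30% of windows with a CHR and 26.7% with both elements. The antral to secondary order and the 3 wk granulosa-like ratio were thus the values whose direction changed.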
